A study of Mus musculus with 12 samples.

Results

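The RNA of *Acod1* and of the enzymes of the tricarboxylic acid (TCA) cycle was followed in bone marrow-derived macrophages (BMDMs) of 2 genotypes, before and after polarization. The group was chosen by function, as the gene for itaconate synthesis and 1 gene for each of 8 cycle enzymes or subunits: *Acod1* (also called *Irg1*), *Cs*, *Idh2*, *Idh3a*, *Ogdh*, *Suclg1*, *Sdha*, *Fh1* and *Mdh2*. Of these 9 genes, 8 were matched to a probe through its accession, with 11 probes in all, among 32301 genes or transcripts on the array. *Fh1*, the gene of fumarate hydratase, was not analysed here. Each of the 8 genes was well above background on 12 of 12 arrays.

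Mice of the C57BL/6 strain were 8 weeks old. In Keap1 CKO mice both *Keap1* alleles are floxed and Cre is expressed from the lysozyme M (*LysM*) locus, so the deletion is directed to myeloid cells. WT mice served as controls. The marrow was grown for 7 days with M-CSF and the BMDMs were then left untreated (Con) or stimulated for 6 hours with LPS and IFNγ (M1) or with IL-4 (M2). Each of the 6 groups held 2 arrays, culture 1 from male mice and culture 2 from female mice, and 1 WT and 1 Keap1 CKO mouse gave the cells of a culture, so the stimuli within a genotype share their mouse. Each stimulus lay on a slide of its own with 4 arrays, and the M2 slide was scanned apart from the other slides. Stimulus and slide therefore cannot be told apart, while the genotypes were compared within a slide.

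The TCA cycle oxidizes acetyl groups in the mitochondrial matrix and feeds electrons to the respiratory chain. In macrophages given LPS and IFNγ the cycle is known to run differently from that of resting cells, with withdrawal of citrate and with ACOD1 turning cis-aconitate into itaconate, a metabolite that inhibits succinate dehydrogenase and activates Nrf2. KEAP1 is the adaptor that marks Nrf2 for degradation, so its loss activates Nrf2 without an added inducer.

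Levels are given as log2 signal relative to the 75th percentile of the array, and differences as differences of these values. They compare arrays for 1 probe and not 1 gene with another. In RNA of whole cultures, fewer cells of a type and less RNA per cell cannot be told apart. That percentile corresponded to a signal of 757 and 548 for WT M1 (cultures 1 and 2), 906 and 787 for Keap1 CKO M1 and 966 to 1166 for the Con and M2 arrays, and 59.3% to 71.4% of probes were well above background. The upper part of the distribution was also wider in M1: the 95th percentile lay 4.02 to 4.17 above the 75th on the 4 M1 arrays and 3.60 to 3.79 above it on the other 8. *Keap1* was lower in Keap1 CKO than in WT by 1.46 (Con), 1.71 (M1) and 1.81 (M2) on average, and the Nrf2 target *Nqo1* was higher by 3.23 to 3.52, so the labels and the RNA point the same way. Where the *Keap1* probe lies relative to the deleted part was not examined. Of 7 macrophage markers, 6 were matched and all 6 were well above background on every array. *Elane* and *Ms4a1*, markers of neutrophil precursors and B cells, were above it on none, while 3 of 3 stromal markers were above it on all 12.

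The sequences upstream of the 3 genes that passed the test after M1 stimulation are shown because these genes responded in different directions. They are the 250 bases before the start of the RefSeq transcript on the gene's own strand, in build GRCm38.p6, with capitals at each match to a searched motif. *Acod1* is at chr14:103046762-103047011 on the plus strand, *Cs* at chr10:128337477-128337726 on the plus strand and *Idh2* at chr7:80115351-80115600 on the minus strand.
Acod1: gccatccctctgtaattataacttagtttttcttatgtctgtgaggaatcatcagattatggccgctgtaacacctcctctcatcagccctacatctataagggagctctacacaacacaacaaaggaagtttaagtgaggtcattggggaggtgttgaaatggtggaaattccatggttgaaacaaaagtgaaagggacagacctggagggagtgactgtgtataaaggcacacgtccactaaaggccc
Cs: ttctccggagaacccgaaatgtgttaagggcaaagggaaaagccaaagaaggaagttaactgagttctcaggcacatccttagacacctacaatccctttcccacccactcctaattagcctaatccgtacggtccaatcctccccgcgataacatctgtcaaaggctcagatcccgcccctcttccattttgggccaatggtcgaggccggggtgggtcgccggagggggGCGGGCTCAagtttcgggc
Idh2: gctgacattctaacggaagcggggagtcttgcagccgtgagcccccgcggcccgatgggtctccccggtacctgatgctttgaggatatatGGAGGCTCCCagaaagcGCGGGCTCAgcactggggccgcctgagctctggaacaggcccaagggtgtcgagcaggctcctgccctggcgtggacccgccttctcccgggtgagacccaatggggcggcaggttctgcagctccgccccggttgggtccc

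Both strands were searched for 6 motifs. These were the antioxidant response element, the site of Nrf2 with small Maf proteins, in its forms TGACNNNGC and TGAGNNNGC, the interferon-stimulated response element GAAANNGAAA, the interferon γ activated site TTCNNNGAA, the NF-κB consensus and the core of nuclear respiratory factor 1, CGCATGCG. *Cs* held 1 match to TGAGNNNGC, beginning 19 bases before the start, and *Idh2* held 1, beginning 142 bases before it. *Idh2* also held 1 match to the NF-κB consensus, 159 bases before the start. No match to the 6 motifs lay in the *Acod1* window, which says only that these letters are not in these 250 bases. TGAGNNNGC was present in 14.4% and the NF-κB consensus in 7.25% of the 32851 windows in the table, and TGACNNNGC in 10.2%, GAAANNGAAA in 2.98%, TTCNNNGAA in 7.02% and CGCATGCG in 1.55%. In the single windows of *Suclg1*, *Sdha*, *Fh1* and *Mdh2* there was no match. *Ogdh* has 6 windows in the table, of which 1 held the NF-κB consensus and 2 the nuclear respiratory factor 1 core.

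The first question was which of these genes respond to M1 stimulation. In WT, *Acod1* rose, *Cs* rose by a smaller amount and *Idh2* fell, and the other 5 genes did not pass the test (limma, Benjamini-Hochberg adjusted p under 0.05 over all genes). Thus 2 of 8 members were higher, where 34.5% of all genes tested were called higher, and 1 of 8 was lower, where 28.7% were called lower. The same 3 genes were called in Keap1 CKO in the same directions, against 24.8% of genes higher and 25.4% lower. These shares of the members are near or below those of all genes, so the count says nothing particular about the cycle. The median difference of the 8 members was 0.12 in WT and 0.04 in Keap1 CKO, beside 0.13 and 0.03 for all genes.

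*Acod1* encodes the mitochondrial decarboxylase that makes itaconate. Its level in WT was −0.27 and 0.64 in Con (cultures 1 and 2), 9.19 and 9.90 in M1 and −0.80 and 0.59 in M2. In Keap1 CKO it was 0.09 and 0.80 in Con, 9.04 and 9.06 in M1 and −0.19 and 0.39 in M2. The 4 M1 arrays stood far above the other 8, whose values overlapped between Con and M2. The rise with M1 was 9.36 ± 0.28 (SE of the fit) in WT, a 657-fold change (adjusted p = 3.42e-06), and 8.60 ± 0.28 in Keap1 CKO, a 389-fold change (adjusted p = 6.5e-06). With M2 the difference was −0.29 in WT and −0.35 in Keap1 CKO, and neither passed the test (limma, adjusted p = 0.519 and 0.478).

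*Cs* encodes citrate synthase, which joins acetyl-CoA and oxaloacetate in the entry step of the cycle. In WT its level was 5.30 and 5.25 in Con, 6.04 and 6.02 in M1 and 5.42 and 5.57 in M2. In Keap1 CKO it was 5.45 and 5.49 in Con, 6.15 and 6.12 in M1 and 5.61 and 5.70 in M2. The M1 values were the highest 4, with no overlap with Con or M2. The rise was 0.75 ± 0.09 in WT (limma, adjusted p = 0.000433) and 0.66 ± 0.09 in Keap1 CKO (adjusted p = 0.00114).

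The rise of *Cs* depended on how the arrays were scaled to each other. Under quantile normalization, which gives all arrays the same distribution, the difference in WT turned to −0.04 (limma, adjusted p = 0.739) and that in Keap1 CKO was 0.11 (adjusted p = 0.339). Relative to the 90th percentile, a setting chosen after seeing the data, it was 0.43 in WT and 0.46 in Keap1 CKO, and both passed. A second, dimmer probe of *Cs* rose by 1.03 in WT and 0.79 in Keap1 CKO in a fit over all probes (limma, adjusted p = 0.000166 and 0.000853). Under quantile normalization that probe still differed by 0.54 in WT and 0.43 in Keap1 CKO, a value with no test.

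The conversion of isocitrate to α-ketoglutarate is served by a NAD-dependent enzyme, of which *Idh3a* encodes the catalytic subunit, and by the mitochondrial NADP-dependent enzyme encoded by *Idh2*. *Idh2* in WT was 1.46 and 1.29 in Con, −0.49 and −0.68 in M1 and 1.66 and 1.57 in M2. In Keap1 CKO it was 1.55 and 1.23 in Con, 0.05 and −0.14 in M1 and 1.68 and 1.47 in M2. The 4 M1 arrays were the lowest of the 12, and among them both Keap1 CKO arrays were above both WT arrays. *Idh2* fell by 1.96 on the log2 scale in WT (SE 0.09, limma adjusted p = 9.69e-06), which is 3.88-fold, and fell by 1.43 in Keap1 CKO (SE 0.09, adjusted p = 5.07e-05), which is 2.69-fold. The difference in WT was between −2.28 and −1.77 over 17 alternative settings and passed the test under each of them.

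*Idh3a* did not follow *Idh2*. In WT it was 1.22 and 1.13 in Con, 1.38 and 1.48 in M1 and 1.83 and 1.93 in M2. In Keap1 CKO it was 1.32 and 0.97 in Con, 1.35 and 1.42 in M1 and 1.79 and 1.97 in M2. The 4 M2 arrays were above the other 8, and the M1 arrays were above the Con arrays by 0.25 in both genotypes, which did not pass the test (limma, adjusted p = 0.155 and 0.19).

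The remaining cycle genes had levels in M1 within or close to the range of Con. *Ogdh*, the E1 subunit of α-ketoglutarate dehydrogenase, was 0.37 and 0.43 in WT Con and 0.44 and 0.74 in WT M1. *Suclg1*, the α subunit of succinyl-CoA synthetase, was 3.94 and 3.79 in WT Con and 4.03 and 3.80 in WT M1. *Sdha*, the flavoprotein subunit of succinate dehydrogenase and the step that itaconate inhibits, was 2.30 and 2.26 in WT Con and 2.24 and 2.42 in WT M1. *Mdh2*, the mitochondrial malate dehydrogenase, was 6.40 and 6.42 in WT Con and 6.38 and 6.45 in WT M1.

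The groups overlapped for *Suclg1*, *Sdha* and *Mdh2*, and the *Ogdh* ranges were next to each other. In Keap1 CKO the Con and M1 levels were 0.63 and 0.34 against 0.57 and 0.60 for *Ogdh* and 4.02 and 3.77 against 3.92 and 3.80 for *Suclg1*. For *Sdha* they were 2.50 and 2.29 against 2.32 and 2.17, and for *Mdh2* 6.63 and 6.42 against 6.60 and 6.42. Here too the Con and M1 ranges overlapped for each of the 4 genes.

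The M1 differences of these genes were small but not tightly bounded. The 95% interval of the WT difference was −0.16 to 0.54 for *Ogdh*, −0.18 to 0.28 for *Suclg1*, −0.23 to 0.32 for *Sdha* and −0.27 to 0.29 for *Mdh2*. Their sign also depended on the scaling. Under quantile normalization *Suclg1* fell by 0.50 and *Mdh2* fell by 0.84 in WT (limma, adjusted p = 0.00376 and 0.000481), and relative to the 90th percentile they fell by 0.28 and 0.32 (limma, adjusted p = 0.044 and 0.0465). In Keap1 CKO, quantile normalization gave −0.43 for *Suclg1*, −0.56 for *Mdh2* and −0.33 for *Sdha*, all past the test. *Acod1* and *Idh2* kept their direction and their calls under each of these scalings, as the plot of the M1 response by scaling shows for *Idh2*.

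**Figure D1:**
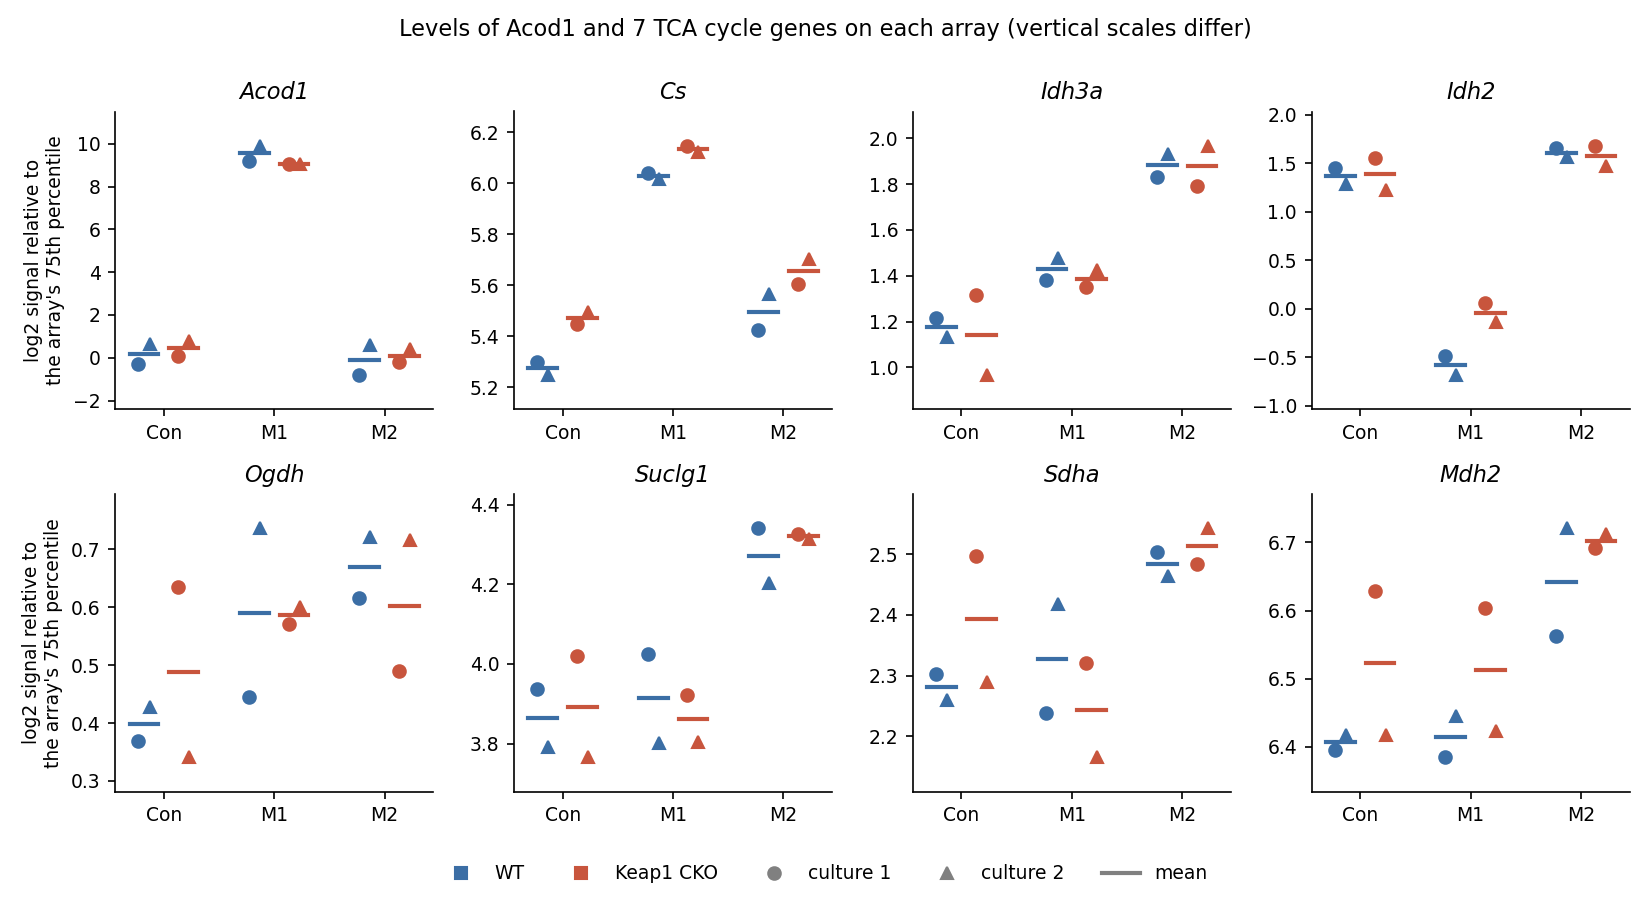
Level of each of the 8 genes on each array, as log2 signal relative to the array's 75th percentile, by stimulus, with WT in blue, Keap1 CKO in red, circles for culture 1, triangles for culture 2 and lines at the mean of both arrays. *Acod1* is above 9 in M1 and below 1 elsewhere, *Idh2* drops in M1 and *Idh3a* and *Suclg1* are highest in M2; the vertical scales differ between genes.

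**Figure D2:**
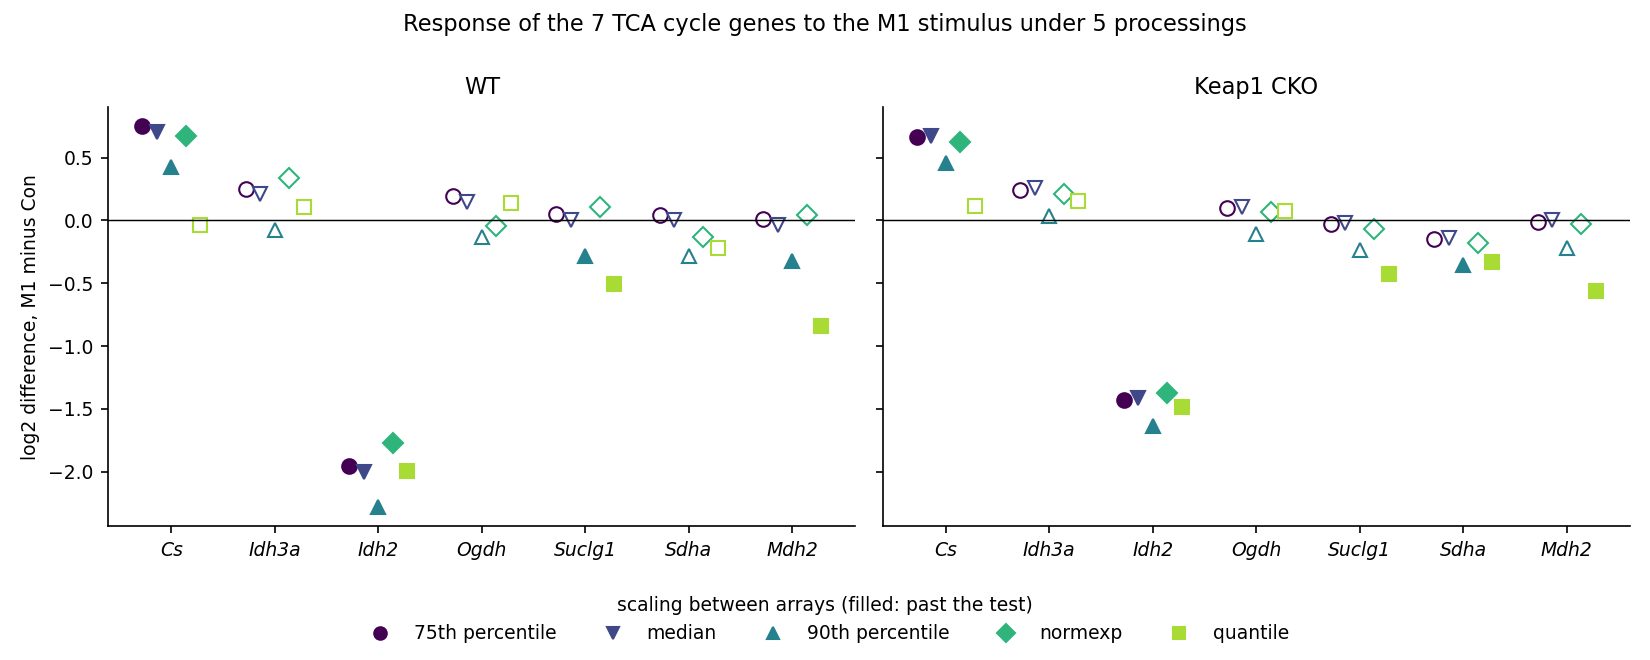
Difference between M1 and Con, as log2, for the 7 TCA cycle genes in WT and Keap1 CKO under 5 ways of making the arrays comparable, with filled symbols where limma's adjusted p was under 0.05. *Idh2* lies between −2.28 and −1.38 under all 5 in both genotypes, whereas *Cs* falls from 0.75 to −0.04 in WT between the 75th percentile and quantile normalization and *Mdh2* goes from 0.01 to −0.84.

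After M2 stimulation *Idh3a* and *Suclg1* rose in both genotypes, and no member fell. In WT 2 of 8 members were called higher, beside 8.62% of all genes, and 0 of 8 lower, beside 8.2% (limma; 4 members had an unadjusted p under 0.05). In Keap1 CKO 2 of 8 were called higher, beside 5.68%, and 0 of 8 lower, beside 4.54%. *Idh3a* rose by 0.71 ± 0.14 in WT and 0.74 ± 0.14 in Keap1 CKO (limma, adjusted p = 0.0186 and 0.0241). *Suclg1* had M2 levels of 4.34 and 4.20 in WT and 4.33 and 4.31 in Keap1 CKO, above each of the other 8 arrays. It rose by 0.41 ± 0.10 and 0.43 ± 0.10 (limma, adjusted p = 0.0315 and 0.0377).

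Both M2 calls rested on all the arrays. Without any 1 of the 4 WT arrays neither gene passed in WT, with adjusted p (limma) between 0.0767 and 0.123 for *Idh3a* and between 0.133 and 0.16 for *Suclg1*. In Keap1 CKO *Idh3a* passed only without the Con array of culture 1. *Suclg1* was not called under the model without the replicate block (limma, adjusted p = 0.14 in WT and 0.169 in Keap1 CKO). In both genotypes its call was also lost under quantile normalization, with normexp and relative to the median or 90th percentile. The same held without the filter on dim probes, with only the groups compared and by the methods' t-test after adjustment. The *Idh3a* call was lost in both genotypes with normexp and by that t-test.

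The other cycle genes were also slightly higher with M2. In WT the M2 levels were 0.62 and 0.72 for *Ogdh*, 2.50 and 2.46 for *Sdha* and 6.56 and 6.72 for *Mdh2*. In Keap1 CKO they were 0.49 and 0.72 for *Ogdh*, 2.48 and 2.54 for *Sdha* and 6.69 and 6.71 for *Mdh2*. The differences of *Cs*, *Idh2*, *Ogdh*, *Sdha* and *Mdh2* were 0.20 to 0.27 in WT and 0.12 to 0.19 in Keap1 CKO, and none passed the test.

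In WT, 7 of 7 cycle genes were higher in M2 than in Con in both cultures, beside 39.5% of all genes. In Keap1 CKO it was 5 of 7, beside 38.4%, and *Ogdh* and *Sdha* were lower in culture 1. The 7 genes had a median difference of 0.24 in WT and 0.18 in Keap1 CKO, where the medians of all genes were −0.01 and 0.01. With normexp background correction the contrast turned round in WT, where the median of the 8 members was 0.17 and that of all genes 0.29, and not in Keap1 CKO, where they were 0.16 and −0.02. The genes share their arrays and their slide, so these counts are a description with no test.

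The second question was whether the loss of *Keap1* changes these levels. In Con 0 of 8 members differed between Keap1 CKO and WT, where 1.39% of genes were called higher and 0.827% lower (limma; 0 members at an unadjusted p under 0.05). In M2 it was also 0 of 8, where 1.28% were called higher and 0.644% lower (0 members at an unadjusted p under 0.05). The differences in Con ran from −0.03 for *Idh3a* to 0.26 for *Acod1*, and those in M2 from −0.07 for *Ogdh* to 0.20 for *Acod1*. The methods' t-test, unadjusted, called 1 member in Con, *Cs*, and 0 in M2.

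*Cs* was the gene with the most even difference. It was higher in Keap1 CKO in both cultures and under each stimulus, by 0.15 and 0.25 in Con, 0.11 and 0.10 in M1 and 0.18 and 0.14 in M2, but the mean of 0.20, 0.11 and 0.16 did not pass the test (limma, adjusted p = 0.423, 0.458 and 0.518). The interval of the *Cs* difference in Con was −0.03 to 0.42. Its second probe differed by −0.10 in M1, so the probes do not share a direction there.

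In M1, 1 of 8 members was called higher in Keap1 CKO, where 7.43% of genes were, and 0 of 8 lower, where 8.58% were. The 1 gene was *Idh2*, which was higher by 0.54 in culture 1 and 0.55 in culture 2, a mean of 0.54 ± 0.09 or 1.46-fold (limma, adjusted p = 0.0148). In Con and M2 the *Idh2* difference was 0.02 and −0.03. The size hardly moved between cultures, but the call did not stand under every model. It was lost without the replicate block (limma, adjusted p = 0.0959), with normexp background correction (0.0931), with only the M1 arrays in the fit (0.182), without WT M1 of culture 2 (0.0638) and without Keap1 CKO M1 of culture 1 (0.0748).

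*Acod1* in M1 was lower in Keap1 CKO by 0.15 in culture 1 and 0.84 in culture 2, and the mean of −0.50 had a 95% interval of −1.16 to 0.16 (limma, adjusted p = 0.25). Under quantile normalization the mean was −0.06. The other 6 genes differed by −0.08 to 0.11 in M1, with intervals that together ran from −0.38 to 0.38.

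The difference between genotypes in the response was tested as an interaction. No member passed it for M1, where 0.0716% of genes were called, or for M2, where 0.00894% were. The *Idh2* fall was smaller in Keap1 CKO by 0.53 ± 0.13 (limma, unadjusted p = 0.00534, adjusted p = 0.169), and it was the 1 member with an unadjusted p under 0.05. The *Acod1* rise was smaller in Keap1 CKO by 0.52 in culture 1 and 0.99 in culture 2, a mean of −0.75 with an interval of −1.69 to 0.18 (adjusted p = 0.387). The genotype difference of *Idh2* in M1 is thus not shown to differ from that in Con.

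The summed signal of the macrophage markers was also lower in Keap1 CKO. Its log2 value was 9.38 and 9.65 in WT M1 and 8.95 and 9.14 in Keap1 CKO M1, and 3 of 6 (*Adgre1*, *Itgam* and *Fcgr1*) were called lower, where 8.58% of all genes were. The same sum was 8.99 and 9.10 in WT Con and 8.55 and 8.73 in Keap1 CKO Con, and 8.89 and 9.03 against 8.66 and 8.78 in M2. This sum includes *Lyz2*, the gene of the *LysM* locus from which Cre is expressed in Keap1 CKO. The mean of *Lyz2* in WT and Keap1 CKO was 7.00 and 6.04 in Con, 6.36 and 5.86 in M1 and 6.37 and 5.69 in M2. *Csf1r* was not lower in Keap1 CKO M1, at 6.92 against 6.81 in WT M1. The share of *Lyz2* in the lower sums was not tested. The neutrophil sum over 7 matched genes of 8 was 3.68 and 3.29 in WT M1 and 3.69 and 2.77 in Keap1 CKO M1, and the stromal sum over 3 genes was 4.97 and 4.87 against 5.30 and 4.51. Their part in the *Idh2* and *Acod1* differences was not tested.

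**Figure D3:**
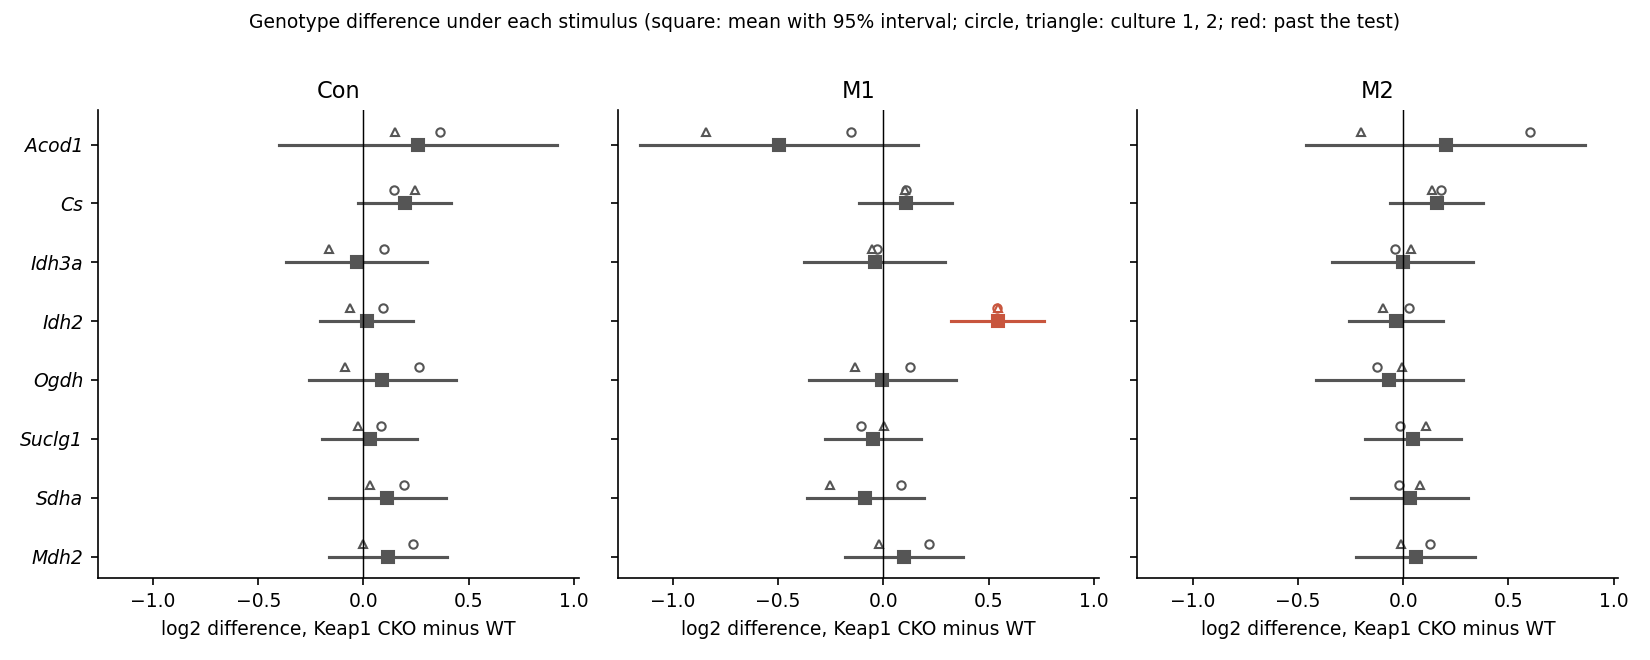
Difference between Keap1 CKO and WT, as log2, for each gene in Con, M1 and M2, with squares and bars for the mean and 95% interval of the fit, open circles and triangles for cultures 1 and 2, and red for a gene past the test. *Idh2* in M1, at 0.54 with an interval of 0.32 to 0.76, is the 1 red entry, and the widest intervals belong to *Acod1*.

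The other subunits and neighbouring steps of the cycle were described with lists chosen for their function. A list of 14 genes held other genes of the cycle together with the cytosolic enzymes *Idh1*, *Aco1* and *Mdh1*. Of the 14, 2 were higher and 6 lower with M1 in WT, beside 34.5% and 28.7% of all genes. The cytosolic enzymes were all among the 6 lower genes. In Keap1 CKO 2 were higher and 7 lower, beside 24.8% and 25.4%. The medians were −0.23 and −0.29 beside 0.13 and 0.03 for all genes. Under quantile normalization 1 was higher and 10 lower in WT. *Idh1*, the cytosolic isocitrate dehydrogenase, went from 1.78 and 1.97 in WT Con to −2.10 and −1.89 in WT M1 and from 2.19 and 2.19 to −0.74 and −1.11 in Keap1 CKO. The Con and M1 arrays did not overlap, and *Idh1* fell by 3.87 in WT, the largest change of the list (limma, adjusted p = 5.61e-06). *Suclg2*, the β subunit of the GTP-forming succinyl-CoA synthetase that pairs with *Suclg1*, fell by 1.80, while *Suclg1* differed by 0.05. *Idh3g*, a regulatory subunit that pairs with *Idh3a*, fell by 1.30, and *Idh3b*, the other, fell by 0.40.

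Cytosolic members fell as well. *Aco1*, the cytosolic aconitase, fell by 0.99 and *Mdh1*, the cytosolic malate dehydrogenase, fell by 0.95 in WT. *Dld* and *Dlst*, the E3 and E2 subunits of α-ketoglutarate dehydrogenase, rose by 0.69 and 0.56, and *Dlst* no longer passed under quantile normalization, at 0.10. In M1 Keap1 CKO exceeded WT by 1.07 for *Idh1*, 0.51 for *Aco1* and 0.38 for *Mdh1* (limma, adjusted p = 0.00807, 0.0162 and 0.045). These cytosolic enzymes were 3 of the 14 genes, with none lower, where 7.43% of all genes were called higher and 8.58% lower. No other gene of the list was called in that comparison. The number of the 14 called higher depended on the scaling. It was 3 under quantile normalization, 4 relative to the 90th percentile, 2 relative to the median and 1 with normexp. With M2, *Aco1* was higher by 0.40 and *Idh1* lower, at −0.60, in WT (8.62% of all genes higher and 8.2% lower), and 0 of 14 genes passed in Keap1 CKO (5.68% and 4.54%).

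At the entry of pyruvate, 11 of 13 listed genes were matched. In WT M1 3 were higher and 3 lower, beside 34.5% and 28.7% of all genes. *Pdk3*, a kinase that inhibits pyruvate dehydrogenase, rose by 2.09 and *Pcx*, pyruvate carboxylase, which makes oxaloacetate, rose by 0.98. *Pdk4*, another of these kinases, fell by 1.82 and *Dlat*, the E2 subunit of pyruvate dehydrogenase, fell by 0.56. *Mpc1*, a subunit of the mitochondrial pyruvate carrier, rose by 0.82, but by 0.12 under quantile normalization. *Pdk1*, a kinase of the same family, was lower in Keap1 CKO under each stimulus, its log2 differences being −0.93 (Con), −1.28 (M1) and −0.99 (M2) (limma, adjusted p = 0.0118, 0.00161 and 0.00964). In M1 *Pcx* was higher in Keap1 CKO by 0.46 and *Pdk3* had a difference of −1.27, both past the test. With normexp 0 genes of the list were called higher and 1 lower in that comparison, against 1 and 2, so the *Pcx* call was lost. The *Pdk3* levels of the 2 Keap1 CKO M1 arrays had an SD of 0.96.

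Among 14 genes for carriers and for glutamine and citrate use, 3 were higher and 7 lower in WT M1, beside the same 34.5% and 28.7%. *Slc25a12*, an aspartate and glutamate carrier, rose by 1.88. *Glul*, glutamine synthetase, fell by 3.21 and *Slc25a13*, the other carrier of that pair, fell by 0.95. *Me1*, the cytosolic NADP-dependent malic enzyme, rose by 0.33 with M1 in WT, a call that was lost relative to the median or the 90th percentile. It was −0.87 and −0.97 in WT Con and 0.96 and 0.66 in Keap1 CKO Con. All 6 Keap1 CKO arrays lay above all 6 WT arrays, and the difference was 1.73 in Con, 1.97 in M1 and 1.59 in M2 (limma, adjusted p = 0.00119, 0.000549 and 0.00157). In M1 *Acaca*, the acetyl-CoA carboxylase of fatty acid synthesis, was higher in Keap1 CKO by 1.01. Its dimmer probes did not all share this direction. A dimmer probe went the other way, at −4.60 and −5.09 in WT M1 and −4.82 and −5.42 in Keap1 CKO M1. Another, at −4.72 and −4.80 against −4.84 and −4.52, changed sign between cultures. A further probe, not well above background in WT M1, was higher in Keap1 CKO in both cultures. With normexp 1 gene of the list was called higher, against 2.

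Of 3 genes that handle itaconate or succinate, *Clybl*, which takes part in itaconate breakdown, fell by 0.61 with M1 and rose by 0.69 with M2 in WT, and *Abcg2*, an exporter, fell by 0.79 with M1. *Sucnr1*, the cell surface receptor for succinate, was not well above background on either Con array of a genotype. In WT M1 it was measured on both arrays and was at least 8.73-fold higher than in Con (limma, adjusted p = 0.000203). In Keap1 CKO M1 it was above background on 1 of 2 arrays, that of culture 2, where its level of −4.94 differed from WT M1 by −1.39. Of 4 assembly factors of succinate dehydrogenase, *Sdhaf1*, *Sdhaf3* and *Sdhaf4* fell in WT M1, by 0.95, 1.12 and 1.15 (28.7% of all genes were lower), and *Sdhaf4* was higher in Keap1 CKO M1 by 0.43.

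**Figure D4:**
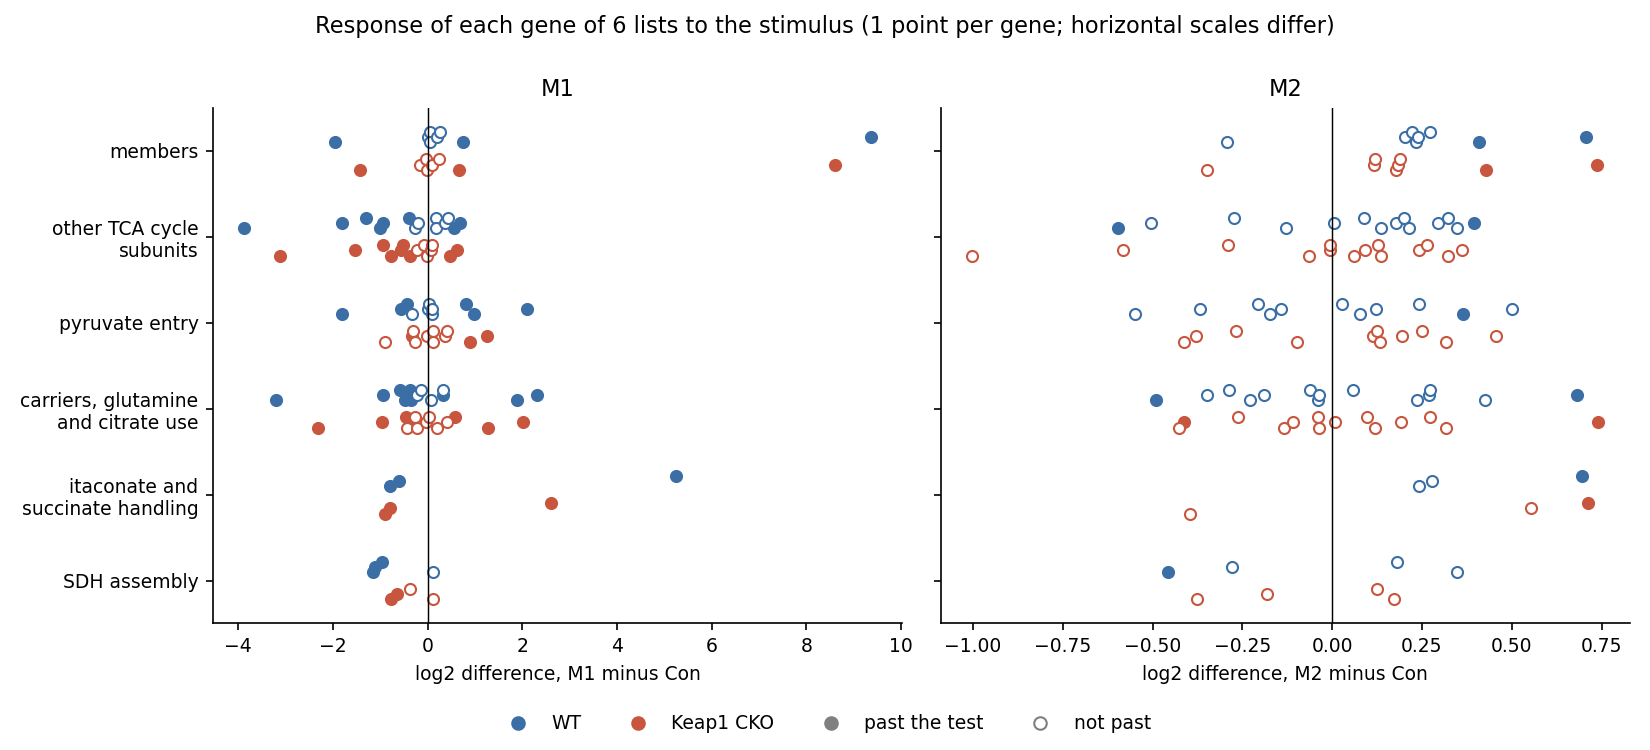
Difference of M1 or M2 from Con, as log2, for each gene of the 8 members and 5 related lists, with WT in blue, Keap1 CKO in red and filled points past limma's test. In M1 the points run from −3.87 (*Idh1*) to 9.36 (*Acod1*), and in M2 all filled points lie between −0.60 and 0.74; the horizontal scales differ.

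Genes with a profile like each member were ranked by Pearson's r over the 12 arrays, among 22083 genes. These values describe arrays that share 6 groups and 3 slides, so a high r follows from a common response to 1 stimulus. For *Acod1* they were L38281 (r = 0.9997), *Tnfrsf1a* (0.998), a TNF receptor, and *Tnip1* (0.997), an inhibitor of NF-κB signalling. L38281 is a transcript that was not matched to a gene symbol here, and whether it comes from *Acod1* itself was not examined. For *Cs* they were AK011675 (0.988) and *Zadh2* (0.979), and for *Idh2* they were *Cdkal1* (0.995), *Mrpl41* (0.994) and *Alg2* (0.994). *Idh3a* was closest to *Ccl17* (0.976), an IL-4-induced chemokine, *Ear1* (0.975) and *Rnase2a* (0.968).

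The other members had less close neighbours. For *Suclg1* they were BC026647 (0.965), AK046642 (0.961) and *Timm29* (0.953), and for *Mdh2* *Septin5* (0.942), *Bola3* (0.929) and AK172111 (0.918). For *Sdha* they were *Lef1* (0.945), NAP029158-1 (0.909) and *Atg9b* (0.909), and for *Ogdh* *Cyb5d1* (0.893), *Abhd2* (0.881) and *Set* (0.856). Among the members themselves *Acod1* and *Idh2* were the most opposed pair (r = −0.98) and *Acod1* and *Cs* the most alike (0.92), followed by *Idh3a* and *Suclg1* (0.86) and *Sdha* and *Mdh2* (0.81).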

How the data were processed

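RNA of 12 BMDM cultures was hybridised to Agilent 1-colour arrays. Spots were quantified by the authors (Agilent Feature Extraction 10.7.3.1), who deposited a background-subtracted intensity for 43379 spots per array, not scaled between arrays. They also deposited log2 values normalized in GeneSpring, which equal the log2 intensity less the 75th percentile, centred on each probe (slope 1.00 on 40749 probes).

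Outlier spots were dropped, spots averaged and log2 values set relative to the array's 75th percentile. The brightest probe stood for a gene, and 26690 of 41174 probes were named by accession. limma 3.58.1 in R 4.3.3 was fitted to 22367 genes (both arrays of some group well above background), with 6 groups and culture (5 residual and 1.92 prior degrees of freedom). Benjamini-Hochberg adjusted p was held to 0.05, and the script was tested on simulated data. Precision is limited by 2 arrays a group. Arrays of 1 culture deviated together (r of 0.162 to 0.597 over 15 pairs of groups, median 0.342), and each culture is said by the sources to hold 1 mouse of each genotype.

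Alternatives were quantile normalization, normexp background correction (offset 50), the authors' log2 values, filters on dim probes, other probes, models without the culture, with the mouse as a block or with fewer arrays, the methods' t-test and leaving out each array. The 50th (median) and 90th percentile scalings were added after seeing the data. The members, lists and rule for named genes (all members, at most the 5 largest differences past the test per list and comparison, and 3 genes most like each member) were chosen with earlier results of these data known. *Dld*, *Dlst*, *Idh3b* and the M1 value of *Me1* fall outside that rule and were named after their values were seen. A few genes that the rule or the marker lists include are not reported here. Windows before transcript starts came from a RefSeq table of GRCm38.p6, in which *Idh3a* has no entry. Plots were made in Python 3.11.15 with pandas 2.3.3 and matplotlib 3.10.9. An exact test of 2 arrays against 2 cannot reach the threshold, so none was run.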

Additional observations from a re-analysis of the deposited data

How the results depend on the processing

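Of 1299 values of the 8 genes in 9 comparisons under alternatives, 1242 stayed on the same side of the threshold, 47 lost a call, 5 gained one and 5 changed sign with a call involved. In a further 106 the sign changed with a call on neither side. With M1 in WT, quantile normalization turned *Cs* to −0.0382, *Suclg1* to −0.50 and *Mdh2* to −0.84, and the 90th percentile turned *Suclg1* to −0.28 and *Mdh2* to −0.32. These settings moved the median of all genes from 0.13 to −0.08 and −0.20, and normexp moved it to 0.39.

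The number of members called with M1 in WT was 3, and 5 relative to the 90th percentile. In Keap1 CKO it was 3, 5 under quantile normalization and 0 by the methods' t-test after adjustment. With M2 in WT it was 2, against 1 under quantile normalization, without the filter on dim probes, with only the groups compared and relative to the median or 90th percentile, and 0 with normexp or the t-test. With M2 in Keap1 CKO it was 2, against 1 under quantile normalization and relative to the median or 90th percentile, and 0 with normexp, without the filter, with only the groups compared or by the t-test. For Keap1 CKO against WT in M1 it was 1, against 0 with normexp, with only the groups compared or by the t-test. In the model without the replicate block, that is without pairing by culture, the counts were 1 with M2 in either genotype and 0 for Keap1 CKO against WT in M1, and the paired model changed no other count by over 1.5 times.

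Leaving out 1 array gave 3 to 3 members with M1 in WT, 3 to 4 in Keap1 CKO, 0 to 0 with M2 in WT, 0 to 1 in Keap1 CKO and 0 to 1 for Keap1 CKO against WT in M1. The methods' t-test called 3 members with M1 in WT after adjustment and 3 before it, and 2934 and 9787 of all genes. With 2 arrays a group, differences under about the distance from a mean to an end of its interval cannot be resolved. Calls near the threshold in M2 are open to the choice of model.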
